A study of Mus musculus with 12 samples.

Results

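The non-coding transcripts of the ubiquitin-specific protease (Usp) genes were examined in the hippocampus and cerebral cortex of 5 × FAD and WT mice. Members were all transcripts of the deposited long RNA count table that belong to a protein-coding gene named Usp with a number in GENCODE M21 and lie outside chromosomes X and Y. They comprised 163 transcripts of 40 genes, out of 48033 transcripts of 22115 genes and assembled loci in the table. The family was selected on measured values, because Usp12 had been singled out for its low counts in the 5 × FAD hippocampus. The hippocampal genotype values of Usp12 are therefore a description. Counts of members past a threshold in that contrast stand beside the share of the whole table, and nothing is read from them. Of 56 annotated Usp genes, 6 lie on X or Y and 10 autosomal genes, namely Usp1, Usp13, Usp25, Usp44, Usp49 and the 5 genes Usp17la to Usp17le, had no transcript in the table. None of the 163 transcripts is annotated as protein-coding. In all, 119 are retained-intron transcripts and 44 are processed transcripts, so the values are those of transcripts annotated as non-coding. A median of 62.2% of the bases of a transcript lay in exons of coding transcripts. How reads from shared exons were divided is not given, so reads of the mRNAs that make the enzymes may be among the counts. The name rule also took in Usp6nl, which encodes a GTPase-activating protein and is not a protease.

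The 12 libraries came from mice of 7 months on the C57BL/6J background, with 3 libraries each of WT hippocampus, 5 × FAD hippocampus, WT cortex and 5 × FAD cortex. 5 × FAD mice carry human transgenes with familial Alzheimer's disease mutations, expressed in neurons from elements of the mouse Thy1 gene, and WT mice are their non-transgenic counterparts. No treatment distinguished the groups. Each mouse gave a hippocampus and a cortex sample, so libraries of the 2 regions are not from separate animals. The submitters describe each genotype as 2 females and 1 male.

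Total counts ranged from 3517967 to 5014389 per library, and the Usp transcripts held 0.202% to 0.238% of them. Transcripts of Y-linked genes were found in 8 of 12 libraries, among them all 6 labelled WT, so the WT libraries go against the stated sex composition. The libraries labelled 5 × FAD 1 and 5 × FAD 2 lacked Y-linked transcripts in both regions. The libraries labelled 5 × FAD 3 also stood apart. Summed Thy1 transcripts were at 38.9 CPM (counts scaled to library size) in hippocampus 5 × FAD 3 and 35.6 CPM in cortex 5 × FAD 3, against 105 to 143 CPM in the other libraries labelled 5 × FAD and 29.9 to 45.9 CPM in WT. The summed microglia markers, of which 7 of 15 had transcripts, were at 53.2 and 40.6 CPM in the libraries labelled 5 × FAD 3, against 186 to 258.5 CPM in the others labelled 5 × FAD and 36.1 to 72.0 CPM in WT. Genotype values of the genes described are therefore also given without the libraries labelled 5 × FAD 3. In those fits every WT library had Y-linked transcripts and no 5 × FAD library had, so genotype and sex cannot be told apart. Zbtb20, a transcription factor of hippocampal neurons, had 424 to 585 counts in hippocampus and 90 to 189 in cortex, so every hippocampal library was above every cortical one. Of the 10 hippocampal markers, 7 had no transcript in the table. Lct had 1 to 9 counts in hippocampus and 0 in cortex. Nr3c2 had 11 to 18 counts in WT hippocampus, 1 to 9 in 5 × FAD hippocampus and 2 to 6 in cortex. The summed cortical markers (6 of 10 with transcripts) were at 212 to 265 CPM in WT hippocampus and 289 to 419 CPM in WT cortex. In 5 × FAD they were at 299 to 312 CPM in hippocampus and 267 to 357 CPM in cortex, so these sums overlapped. Lmo4 had the highest counts of the 6, with 853, 955 and 776 in 5 × FAD hippocampus and 844, 448 and 687 in 5 × FAD cortex. Rorb did not overlap, with 17, 27 and 23 counts in 5 × FAD hippocampus and 60, 43 and 52 in 5 × FAD cortex. Of the 6, 1 had a log2 fold change of hippocampus over cortex above 0 in 5 × FAD (median −0.54).

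Ubiquitin is a small protein that is joined to other proteins, where it marks them for destruction by the proteasome or alters their location and activity. Ubiquitin-specific proteases are the largest family of deubiquitinases, cysteine proteases that remove ubiquitin again. In neurons they act on receptor trafficking, synaptic protein turnover, mitochondrial quality control and chromatin. USP12, USP46 and USP1 are activated by the same WD-repeat cofactor, WDR48, and USP46 is known for acting on glutamate receptors. A retained-intron transcript keeps intronic sequence that the mRNA lacks, and such transcripts are usually nuclear or degraded.

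The Usp12 transcripts are shown first because the hippocampal values described next turn on them. Usp12 (ENSMUSG00000029640) lies on the minus strand of GRCm38 at chr5:146734809-146795006. The table lists 2 of its transcripts, Usp12-203 (ENSMUST00000138202, 3914 bases, 7 exons, chr5:146734839-146758448) and Usp12-202 (ENSMUST00000124009, 543 bases, 5 exons). Both begin at a first exon inside an intron of the coding transcript Usp12-201, which has 9 exons. Usp12-203 begins 36558 bases downstream of the coding start and Usp12-202 begins 36550 bases downstream. Both first exons then join the same 230-base exon that Usp12-201 uses. Of the bases of Usp12-203, 92.2% lie in exons of coding transcripts, and the part outside them is its first exon of 304 bases. The first 300 bases of that exon are printed from GENCODE M21, with the 83 bases that it shares with the first exon of Usp12-202 in capitals (chr5:146758149-146758448, minus strand).
Usp12-203 first exon: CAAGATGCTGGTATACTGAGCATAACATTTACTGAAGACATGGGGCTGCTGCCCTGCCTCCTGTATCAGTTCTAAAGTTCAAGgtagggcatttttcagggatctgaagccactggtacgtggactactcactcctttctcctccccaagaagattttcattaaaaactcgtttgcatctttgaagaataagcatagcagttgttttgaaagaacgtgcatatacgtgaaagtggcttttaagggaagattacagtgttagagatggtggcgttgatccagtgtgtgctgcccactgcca
Each of the 3 transcripts enters the shared exon from a different sequence, which is what tells their reads apart at this point. The last 15 bases of the preceding exon are in lower case and the first 15 of the shared exon in capitals.
Usp12-201 junction: tgcggaaagaaaacgAGCTGTTTGACAACT
Usp12-202 junction: gttctaaagttcaagAGCTGTTTGACAACT
Usp12-203 junction: gcccactgccatgagAGCTGTTTGACAACT

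Usp12 was low in every library of the 5 × FAD hippocampus. Usp12-203 had 218, 401 and 201 counts in WT hippocampus 1 to 3 and 9, 18 and 8 in 5 × FAD hippocampus 1 to 3. The groups did not overlap, and the libraries labelled 5 × FAD 1, 2 and 3 were alike in this, although 5 × FAD 3 resembled WT in its Thy1, microglia and Y-linked transcripts. Usp12-202 had 6, 8 and 5 counts in WT hippocampus and 0 in each 5 × FAD hippocampus library, where 3 counts is the level that a count of 0 allows per library. Summed per gene, Usp12 was at 60.5 ± 22.9 CPM in WT hippocampus and 2.79 ± 1.19 CPM in 5 × FAD hippocampus (SD, n = 3 each), a log2 fold change of −4.39 with a standard error of 0.41. Without 5 × FAD hippocampus 3 the log2 fold change was −4.20, and without 5 × FAD 1 and 2 it was −4.90. In bulk tissue, fewer cells of a type and less RNA per cell cannot be told apart.

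The cortical libraries were not used to choose Usp12, but they come from the same mice as the hippocampal ones. Usp12-203 had 181, 217 and 8 counts in WT cortex and 229, 12 and 292 in 5 × FAD cortex. One library of each genotype, WT cortex 3 and 5 × FAD cortex 2, lay as low as the 5 × FAD hippocampus, and the groups overlapped. The gene sum was at 31.1 ± 25.1 CPM in WT and 40.6 ± 33.3 CPM in 5 × FAD (SD, n = 3 each). Its log2 fold change was 0.37 with a standard error of 1.12 (adjusted p = 0.972 by edgeR's quasi-likelihood test), and leaving out single libraries moved it between −0.19, without 5 × FAD cortex 3, and 0.92. Usp12-203 thus took either a high or a low level, between 181 and 401 counts in 7 libraries and between 8 and 18 in the other 5, with nothing between.

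**Figure D1:**
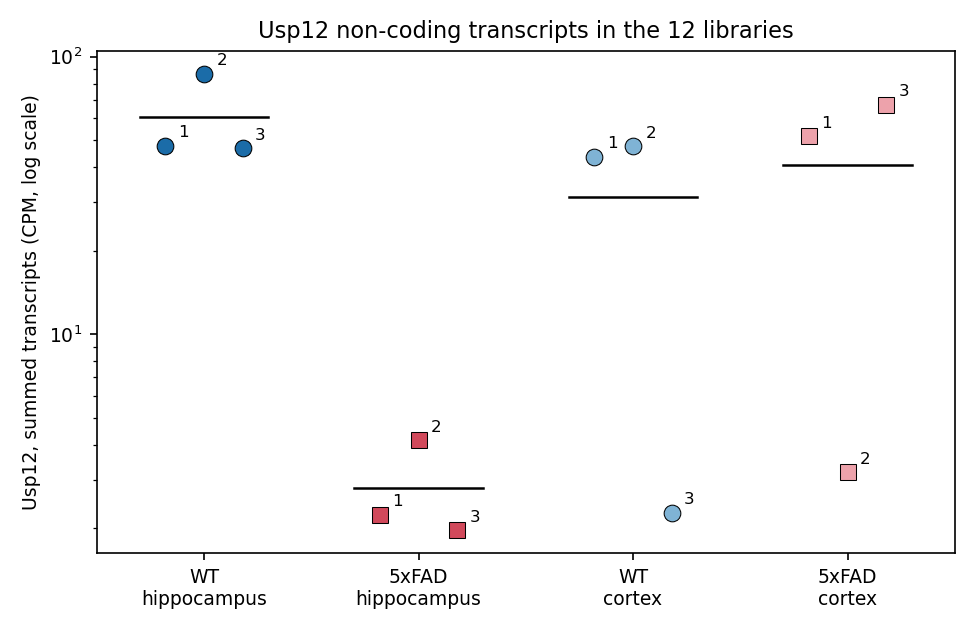
Summed Usp12 transcripts in each library, in CPM on a log axis, by region and genotype. Numbers beside the points are the replicate numbers and lines are group means. The 3 libraries of the 5 × FAD hippocampus, WT cortex 3 and 5 × FAD cortex 2 lie between 1.97 and 4.15 CPM, and the other 7 libraries between 43.6 and 86.9 CPM.

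Cell type markers differed between the same libraries. In the hippocampus, the summed astrocyte markers with transcripts (5 of 8) were at 1423 to 1541 CPM in WT and 528 to 1195 CPM in 5 × FAD, and the summed neuronal markers (8 of 8) were at 1243 to 4095 CPM in WT and 1580 to 6983 CPM in 5 × FAD. The astrocyte difference lay in Slc1a3, a glutamate transporter, for which WT hippocampus held 6712, 6110 and 5908 counts against 2042, 1808 and 4256 in 5 × FAD. Slc1a2, Gja1 and Aldh1l1 overlapped between the genotypes. The neuronal sums overlapped, and their members did not move together. Of the 7 neuronal genes tested in the hippocampus, 4 had a log2 fold change above 0 (median 0.41). Slc17a7 was higher in 5 × FAD (1.795) and Camk2a lower (−1.79), each with an adjusted p of 0.570 by edgeR. The highest sum, that of 5 × FAD hippocampus 1, included 14888 counts of Slc17a7 and 9574 of Gad1. Gad1 was at 76 in 5 × FAD hippocampus 2. The autosomal oligodendrocyte markers (4 of 9 had transcripts), most of whose counts were of Cnp, summed to 230.5 to 323 CPM in WT hippocampus and 369.8 to 474 CPM in 5 × FAD hippocampus. In cortex they summed to 213 to 359 CPM in WT and 384 to 436 CPM in 5 × FAD, and neither region had overlap. By log2 fold change, only Cnp of the 4 was above 0 in the hippocampus (median −0.16), and all 4 were in the cortex (median 0.46). In cortex, the libraries WT 3 and 5 × FAD 2, where Usp12 was low, had astrocyte sums of 1267 and 1334 CPM, inside the range of 958 to 1577 CPM over the cortical libraries, and microglia sums of 48.4 and 219.5 CPM. The part of cell composition in the Usp12 values and in the other genotype differences was not tested.

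Usp46, the closest paralog of Usp12, was scarce. Its gene sum was at 1.80 ± 0.61 CPM in WT hippocampus, 3.01 ± 1.02 in 5 × FAD hippocampus, 1.24 ± 0.58 in WT cortex and 2.42 ± 0.90 in 5 × FAD cortex (SD, n = 3 each). Its 2 transcripts did not pass the filter on low counts in either genotype comparison. Antisense genes Usp46os1 and Usp46os2 overlap both of them on the opposite strand. Usp1 had no transcript in the table.

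The 40 genes spanned a wide range of levels. By share of counts, which depends on length, Usp7, a nuclear protease that stabilises MDM2 and p53, came first at 278 ± 61.0 CPM (SD over 12 libraries). Usp36, a nucleolar protease, was at 165 CPM, Usp15 at 142 CPM, Usp47 at 129 CPM, Usp16, which acts on histone H2A, at 112 CPM, and Usp14, which is bound to the proteasome, at 100.1 CPM. Usp54, Usp19, Usp10 and Usp33 completed the highest 10 with 97.7, 95.1, 92.8 and 78.2 CPM. Per kilobase of the exons in their listed transcripts, the order of levels was Usp7 (46.1 ± 10.1 CPM per kb), Usp2 (41.1 ± 13.4), Usp36 (28.6 ± 4.45), Usp54 (22.7 ± 2.94) and Usp14 (20.1 ± 1.54). Usp2, a protease linked to the circadian clock, stood second on this scale because its 2 transcripts cover only 936 bases. Its level per kilobase differed from that of Usp7 by less than their spread over libraries, as did Usp54 from Usp14.

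At the other end, Usp50 was at 0.433 CPM, Usp8, an endosomal protease that acts on receptors, at 0.726 CPM, and Usp18, which removes the ubiquitin-like protein ISG15, at 1.62 CPM. Usp8 had no count in 6 of the 12 libraries and at most 13 counts. Usp46, Usp18, Usp8 and Usp50 were the 4 genes whose sums did not pass the filter in the genotype comparisons. Of the 163 transcripts, 3 had no count in any library and 25 never exceeded 10 counts.

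**Figure D2:**
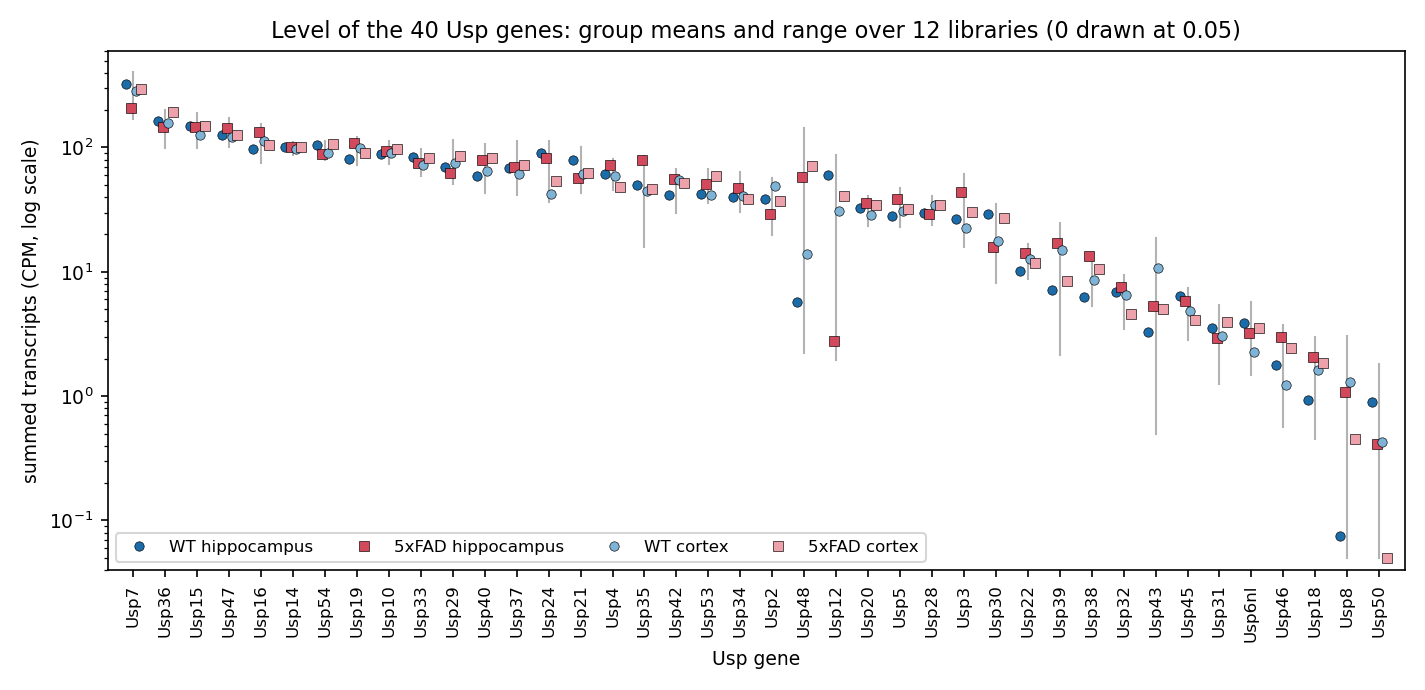
Level of each Usp gene as the sum of its transcripts, in CPM on a log axis, with genes ordered by mean level. Symbols are group means (n = 3), grey lines run from the lowest to the highest of the 12 libraries and a value of 0 is drawn at 0.05. Usp7 leads at 278 CPM and Usp50 is last at 0.433 CPM, while Usp48 and Usp12 have the longest ranges among genes over 30 CPM.

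The summed level of the family differed little between groups. All Usp transcripts together were at 2163 to 2300 CPM in WT hippocampus, 2065 to 2324 in 5 × FAD hippocampus, 2020 to 2238 in WT cortex and 2234 to 2347 in 5 × FAD cortex. The ranges of the hippocampal groups overlapped, and in the cortex they overlapped only at the edge. Among the 27 member genes with a mean of at least 100 counts, the highest library was a median of 2.07 times the lowest, and among all 5633 such genes of the table it was 2.08 times.

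In the hippocampus, of 36 gene sums tested, 1 was called at an adjusted p under 0.05 by edgeR, and this was Usp12, whose values had led to its choice. The share over all 11345 gene sums was 0.0529%. At an unadjusted p under 0.05 there were 7 Usp gene sums, 19.4% of those tested against 8.68% of all, and 4 (11.1%) also met the study's screen, an unadjusted p under 0.05 and a change of 1 or more on the log2 scale in either direction, against 3.38% of all. DESeq2 called 1, again Usp12, against 0.74% of all. The other 6 at the unadjusted p were Usp38, Usp7, Usp19, Usp48, Usp39 and Usp3, with adjusted p between 0.437 and 0.571 by edgeR. Of 118 transcripts tested, edgeR called 0 (0.0183% of all), 11 had an unadjusted p under 0.05 (9.32%, against 7.58% of all), 9 passed the screen (7.63%, against 4.05% of all) and DESeq2 called 1 (0.58% of all). These shares lay above those of the table, which was not tested, and since Usp12 was taken from this contrast, nothing is read from them. The median log2 fold change of the 36 gene sums was 0.13, beside 0.03 over all gene sums.

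Usp38, an immune and DNA damage regulator, is a gene with 1 listed transcript (Usp38-202, ENSMUST00000211538, chr8:80998213-81014913). It had 25, 34 and 27 counts in WT hippocampus and 57, 58 and 53 in 5 × FAD hippocampus. Every 5 × FAD library lay above every WT library, by a log2 fold change of 1.14 with a standard error of 0.25 for the gene sum, and the value was 1.17 without 5 × FAD hippocampus 3. A gene on the opposite strand, Gm9725, overlaps it. In the cortex Usp38 held 42, 42 and 25 counts in WT against 40, 39 and 55 in 5 × FAD, with overlapping groups.

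Among the chromatin proteases, the 7 genes tested had hippocampal log2 fold changes from −0.63 to 0.76. Usp7 was lowest of them, at 408, 303 and 268 CPM in WT and 234, 170 and 217 CPM in 5 × FAD, so that the groups did not overlap. Its log2 fold change was −0.63 with a standard error of 0.22, and −0.67 without 5 × FAD hippocampus 3. The lower sum lay mainly in 1 of its 9 listed transcripts, Usp7-210, at 199.8 ± 72.2 CPM in WT and 66.1 ± 47.2 CPM in 5 × FAD (log2 fold change −1.58). The scarcer Usp7-205 was also lower (−1.08). The other Usp7 transcripts tested had log2 fold changes between −0.30 (Usp7-213) and 0.48 (Usp7-211). Usp3, which acts on histones H2A and H2B, was the highest at 0.76 with a standard error of 0.32, but its groups overlapped, and the value was 0.97 without 5 × FAD hippocampus 3 and 0.23 without 5 × FAD 1 and 2. Its transcript Usp3-201 held 36, 42 and 45 counts in WT hippocampus, and 97, 212 and 63 in that of 5 × FAD mice. Usp22, the ubiquitin protease of the SAGA complex, was at 10.2 ± 1.14 CPM in WT and 14.1 ± 1.85 CPM in 5 × FAD (SD, n = 3 each), with groups that did not overlap. Its log2 fold change was 0.48, or 0.40 without 5 × FAD hippocampus 3.

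Among the proteases of endosomes and membrane proteins, 6 genes were tested and their hippocampal log2 fold changes lay between −0.37 and 0.47. Usp19, a protease anchored in the endoplasmic reticulum, was at the upper end, with 83.0, 72.0 and 86.0 CPM in WT and 104, 103 and 121 CPM in 5 × FAD. Its groups did not overlap, and its log2 fold change was 0.39 without 5 × FAD hippocampus 3. The proteasome-bound Usp14 was at 100.2 ± 2.48 CPM in WT and 101 ± 9.17 CPM in 5 × FAD, a log2 fold change of 0.04, and Usp5, which takes apart free ubiquitin chains, had a log2 fold change of 0.49 with overlapping groups. Without 5 × FAD hippocampus 3 these values were 0.10 and 0.55. The mitochondrial Usp30, which opposes the removal of damaged mitochondria, had a log2 fold change of −0.85 with a standard error of 0.39. It was at 29.0, 34.8 and 23.2 CPM in WT and 23.4, 8.07 and 16 CPM in 5 × FAD, so the groups overlapped only through 1 library of each, and its log2 fold change was −0.86 without 5 × FAD hippocampus 3.

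Usp39, a spliceosome protein that lacks protease activity, had 10, 40 and 48 counts in WT hippocampus. It had 62, 59 and 89 counts in 5 × FAD hippocampus, for a log2 fold change of 1.27 with a standard error of 0.53. The groups did not overlap, and WT hippocampus 1 was the lowest of all 12 libraries. Without 5 × FAD hippocampus 3 the value was 1.04. Usp48 had the highest log2 fold change of the family, 3.34 with a standard error of 1.21, but its groups overlapped. Its transcript Usp48-213 had 1, 0 and 1 counts in WT hippocampus and 88, 581 and 1 in 5 × FAD hippocampus. The library labelled 5 × FAD 3 was thus as low as WT, and the log2 fold change of the gene sum was 3.90 without it and turned to −1.34 without 5 × FAD 1 and 2. Usp15-210 behaved alike, since WT held 13, 13 and 11 counts and 5 × FAD held 49, 71 and 8. Its log2 fold change was 1.92, with 2.41 when 5 × FAD hippocampus 3 was left out, and turned to −0.44 without 5 × FAD 1 and 2. Leaving out 5 × FAD hippocampus 3 changed the sign of 6 of the 36 gene sums and of 14 of the 118 transcripts.

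The remaining transcripts with an unadjusted p under 0.05 and no overlap had modest counts. Usp33-205 held 6, 7 and 11 counts in WT against 23, 19 and 15 in 5 × FAD, Usp35-204 had 15, 16 and 15 against 23, 45 and 24, and Usp22-204 had 16, 15 and 22 against 37, 24 and 41. These 3 and Usp5-205 (15, 15 and 14 against 24, 26 and 17) were higher in 5 × FAD. Usp7-205 (29, 24 and 25 against 10, 11 and 12) and Usp30-204 (125, 143 and 89 against 73, 27 and 57) were lower. Without 5 × FAD hippocampus 3 their log2 fold changes were 1.52, 1.27, 0.93, 0.91, −1.16 and −1.08 in this order.

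**Figure D3:**
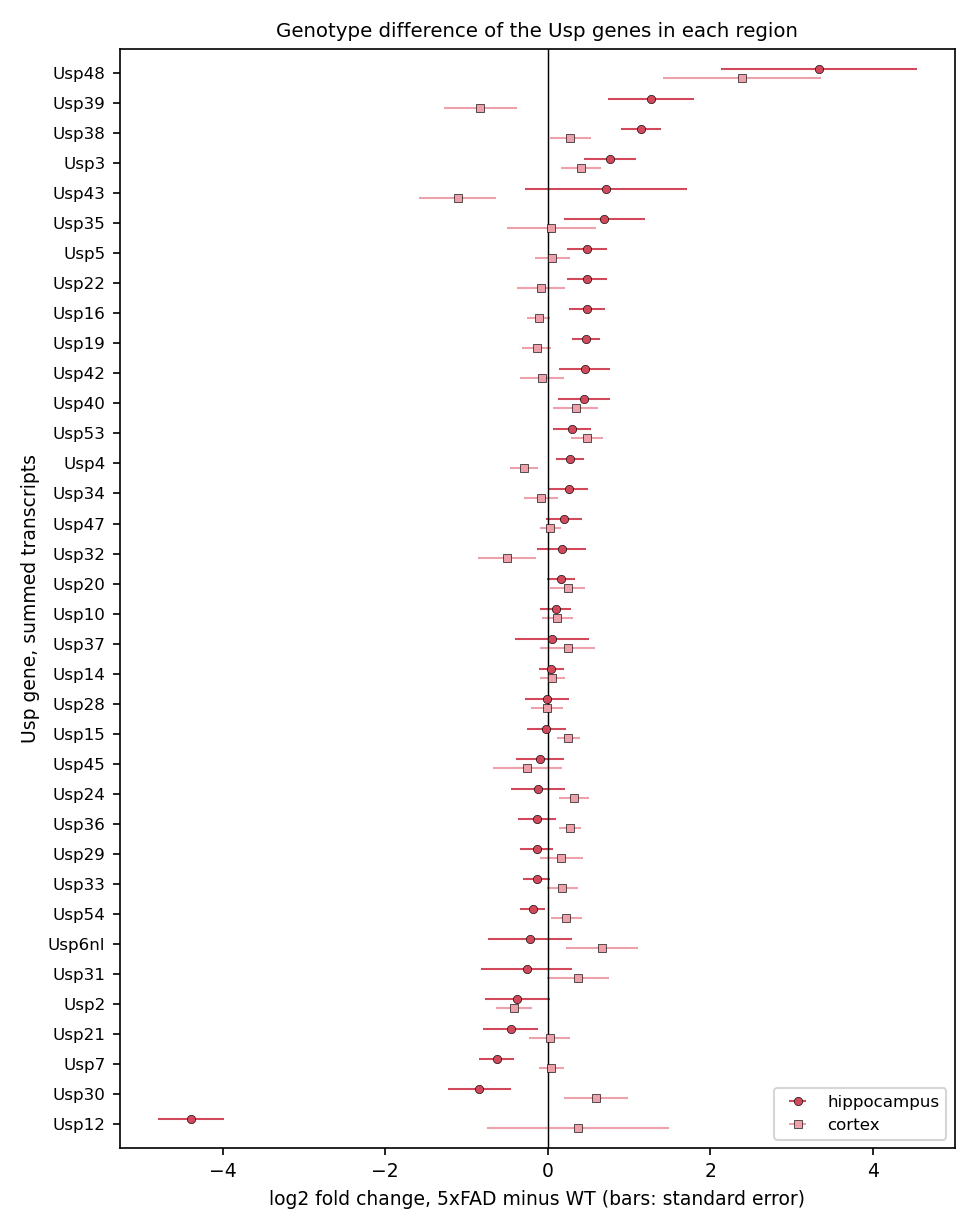
Log2 fold change of 5 × FAD over WT for the 36 Usp gene sums tested, in the hippocampus (circles) and the cortex (squares), with bars of 1 standard error. Usp12 lies at −4.39 in the hippocampus and 0.37 in the cortex, Usp48 at 3.34 and 2.39, and most other genes lie within 1 of 0 in both regions.

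In the cortex no Usp gene separated the genotypes by the test. edgeR called 0 of 36 gene sums (0.0175% of all) and 0 of 120 transcripts (0.0545% of all), and DESeq2 called 0 and 0 (0.465% and 0.464% of all). At an unadjusted p under 0.05 there were 2 gene sums, against 6.68% of all, and 6 transcripts, against 5.34% of all. The screen took 1 gene sum (2.45% of all) and 3 transcripts (2.61% of all). The shares of Usp members were 5.56% of gene sums and 5.00% of transcripts at the unadjusted p, near those of the whole table.

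The 2 gene sums were Usp48 and Usp53. Usp48 was at 13.9 ± 18.1 CPM in WT and 71.3 ± 50.9 CPM in 5 × FAD (SD, n = 3 each), with Usp48-213 at 1, 1 and 93 counts in the former and 562, 171 and 132 in the latter. Its log2 fold change was 2.39 with a standard error of 0.97 (adjusted p = 0.739 by edgeR). Leaving out single libraries moved it from 1.62, without 5 × FAD cortex 1, to 4.35, without WT cortex 3. It was 2.72 without 5 × FAD cortex 3 and 1.31 without 5 × FAD 1 and 2. Usp53 was at 41.8 ± 1.88 CPM in WT and 58.6 ± 12.9 CPM in 5 × FAD, a log2 fold change of 0.49 (adjusted p = 0.739 by edgeR). That value was 0.65 without 5 × FAD cortex 3 and 0.06 without 5 × FAD 1 and 2, since the library labelled 5 × FAD 3, at 43.8 CPM, was like WT.

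Of the 6 transcripts, 2 belong to Usp3 and lay in opposite directions. Usp3-204 had 13, 25 and 12 counts in WT cortex and 42, 50 and 30 in 5 × FAD cortex (log2 fold change 1.30, standard error 0.37, adjusted p = 0.851 by edgeR). For Usp3-206 the WT cortex held 10, 16 and 9 counts, and that of 5 × FAD 1, 5 and 4 (log2 fold change −1.76, standard error 0.58, adjusted p = 0.904). In the hippocampus the same transcripts overlapped between genotypes. Usp14-208 was above WT in each 5 × FAD cortex library in CPM (log2 fold change 0.57), and Usp20-210, Usp4-203 and Usp43-203 were lower (−0.76, −0.47 and −1.25). All 4 had an adjusted p of 0.912 by edgeR. Without 5 × FAD cortex 3 the values were 1.51 for Usp3-204, −1.85 for Usp3-206, 0.44 for Usp14-208, −0.67 for Usp20-210, −0.43 for Usp4-203 and −1.50 for Usp43-203. That of Usp43-203 was −0.59 without WT cortex 1.

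Between regions, Usp24 was the 1 member that passed the test. USP24 is a large protease reported in DNA damage responses and lies in a Parkinson's disease susceptibility region. The gene (ENSMUSG00000028514, plus strand, chr4:106316213-106441322) was higher in WT hippocampus, at 90.8 ± 20.7 CPM, than in WT cortex, at 42.5 ± 5.44 CPM (SD, n = 3 each). The log2 fold change was 1.07 with a standard error of 0.20 (adjusted p = 0.0368 by edgeR). The call is lost without any 1 of the 6 libraries, with adjusted p between 0.0600 and 0.124, with all 12 libraries in one fit (adjusted p = 0.0799) and with the replicate number as a block (log2 fold change 1.06, adjusted p = 0.0991). The choroid plexus markers (2 of 4 with transcripts, of which 1 at 0 in every library) summed to 16.8 to 33.4 CPM in WT hippocampus and 3.65 to 3.99 CPM in WT cortex, and their part in the Usp24 difference was not tested. Most of the gene's counts fell on Usp24-202 (ENSMUST00000106798, chr4:106316220-106360883), a median of 92.5% over the libraries. It had 137, 205 and 139 counts in WT cortex and 385, 506 and 299 in WT hippocampus, with no overlap, and in the transcript fit its log2 fold change of 1.13 had an adjusted p of 0.0882.

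Usp24-202 covers the beginning of the gene and ends in an intron. Its 10th exon passes the end of the coding exon and runs 1709 bases into the intron. The point where coding transcripts leave the exon is printed because this intron marks the transcript that held most of the counts (chr4:106359160-106359189, plus strand, intronic bases kept in capitals).
Usp24-202 retained intron: aattccctcaaggaaGTAAGTGTGCACCTG
In 5 × FAD mice Usp24-202 had 238, 200 and 177 counts in cortex and 356, 445 and 162 in hippocampus. By CPM the library labelled 5 × FAD hippocampus 3 lay within the cortical range. The gene's log2 fold change over cortex was 0.62 (adjusted p = 0.509 by edgeR) and 0.90 without that library.

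In WT mice edgeR called 1 of 36 Usp gene sums, 2.78%, beside 3.5% of all gene sums, and 0 of 116 transcripts, beside 0.986% of all. DESeq2 called 1 gene sum (6.66% of all) and 1 transcript (3.38% of all). At an unadjusted p under 0.05 there were 1 gene sum (17.3% of all) and 5 transcripts (12.8% of all). The Usp shares of 2.78% and 4.31% at the unadjusted p lay below those of the whole table, which was not tested as a difference. Beside Usp24-202, the 5 were Usp3-206 and Usp22-204, lower in hippocampus by log2 fold changes of −1.45 and −0.81, and Usp54-205 and Usp16-209, higher by 0.36 and 0.82, with adjusted p of 0.202, 0.331, 0.293 and 0.325 by edgeR.

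In 5 × FAD mice edgeR called 0 of 38 gene sums (0.193% of all) and 0 of 119 transcripts (0.0182% of all). DESeq2 called 1 gene sum (2.95% of all) and 1 transcript (1.66% of all), which were Usp12 and Usp12-203. At an unadjusted p under 0.05 there were 4 gene sums (10.5%, against 12.5% of all) and 9 transcripts (7.56%, against 9.38% of all). Usp12 had a log2 fold change of −3.85 there, which shares the libraries that led to its choice. Usp4, which acts in the spliceosome cycle, was at 72.6 ± 6.80 CPM in hippocampus and 48 ± 3.06 CPM in cortex, with groups that did not overlap (log2 fold change 0.59, adjusted p = 0.248 by edgeR). Usp39 was at 17.0 ± 4.37 CPM in hippocampus and 8.47 ± 3.07 CPM in cortex (1.002, adjusted p = 0.306), and Usp7 at 207 ± 33.3 CPM and 295 ± 41.9 CPM (−0.51, adjusted p = 0.363), again without overlap. Of the 9 transcripts, Usp33-205, Usp3-201, Usp4-208, Usp39-202 and Usp16-205 were above cortex in every hippocampal library (log2 fold changes 2.11, 1.51, 1.15, 0.98 and 0.71), and Usp5-209 and Usp54-204 below it (−1.14 and −0.89), with adjusted p between 0.359 and 0.510.

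**Figure D4:**
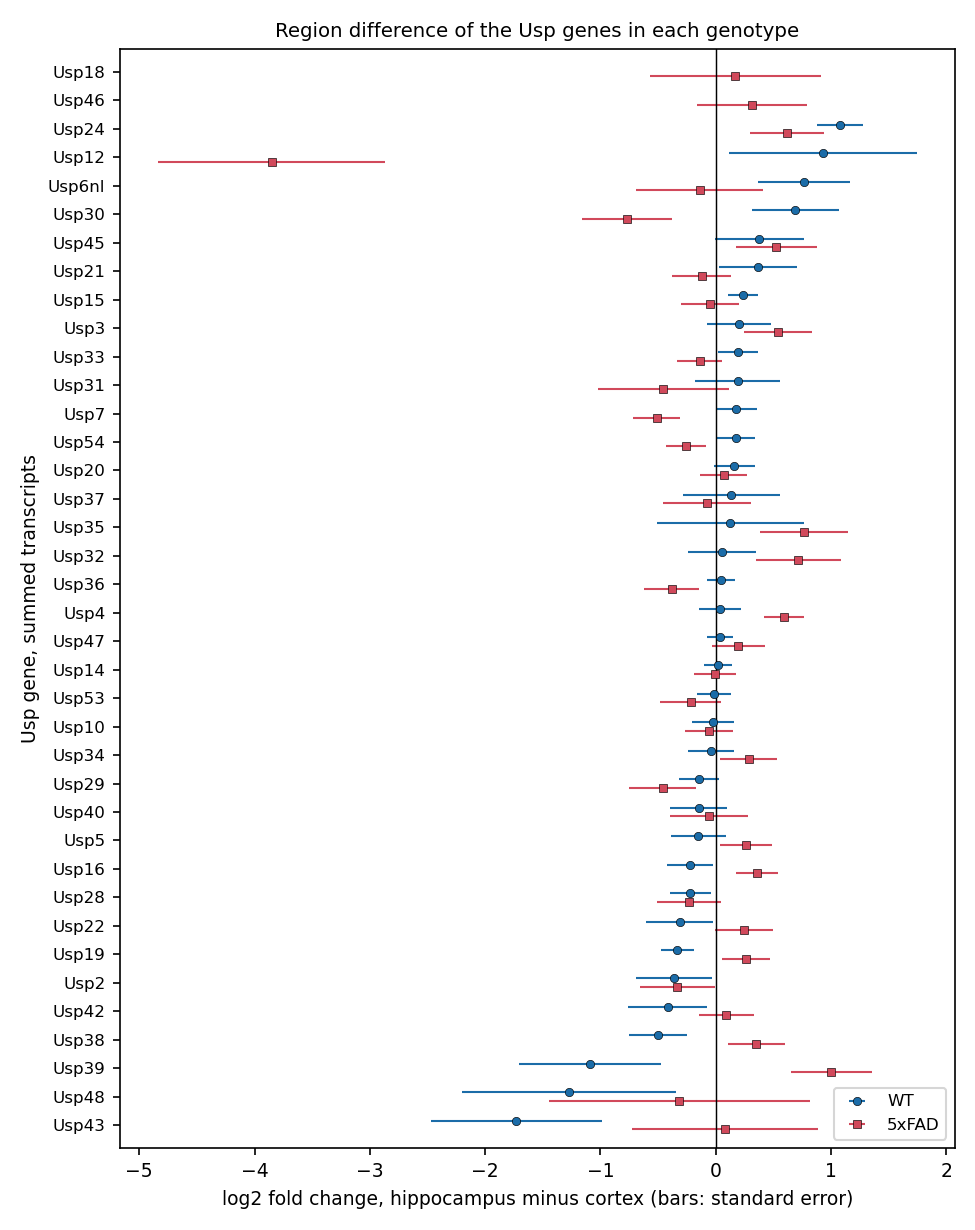
Log2 fold change of hippocampus over cortex for the Usp gene sums in WT (circles) and 5 × FAD mice (squares), with bars of 1 standard error. Usp24 lies at 1.07 in WT, and Usp12 at −3.85 in 5 × FAD with its wide bar.

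Whether the genotype difference was unequal in the 2 regions was then read from an interaction term over all 12 libraries. The fit took the libraries as independent, although both regions came from the same mice. edgeR called 0 of 38 Usp gene sums (0% of all) and 0 of 129 transcripts (0.00812% of all), and DESeq2 called 0 and 0 (0.157% and 0.426% of all). At an unadjusted p under 0.05 there were 7 gene sums (18.4%, against 7% of all) and 14 transcripts (10.85%, against 6.89% of all). These shares lay above the table's, which was not tested, and they contain the hippocampal contrast from which Usp12 was taken. The 7 were Usp12, Usp39, Usp38, Usp7, Usp30, Usp19 and Usp4. The estimate for Usp12 was −4.80 with a standard error of 1.45, and it contains the hippocampal contrast by which the gene was chosen. Usp39 had the next widest estimate, 2.07 with a standard error of 0.75 (adjusted p = 0.660 by edgeR). Its mean was higher in 5 × FAD than WT in the hippocampus and lower in the cortex, at 8.47 against 15.1 CPM.

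Many Usp genes have several listed transcripts, and their shares differed between libraries. Of 36 genes with several transcripts, 16 had the same leading transcript in every library, and over the genes the leading one held a median of 55.0% of the gene's counts. Usp2-209, Usp37-207, Usp24-202 and Usp12-203 held medians of 96.5%, 94.4%, 92.5% and 98.5%. Usp15, Usp40 and Usp10 were split more evenly, with medians of 31.8%, 32.4% and 32.9% for the leading transcript.

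Of 49 Usp transcripts with at least 100 counts in some library, 10 varied by 10-fold or more between libraries. This is 20.4%, beside 19.9% of the 9529 such transcripts in the table. None was all-or-none (100 counts or more in some libraries, 3 or fewer in every other one), beside 3.98% of the table. The 10 were Usp10-209, Usp12-203, Usp16-205, Usp3-201, Usp35-206, Usp40-202, Usp42-205, Usp48-213, Usp54-204 and Usp7-210. High and low libraries often crossed the groups. Usp42-205 had 23, 17 and 141 counts in WT hippocampus, 151, 127 and 114 in 5 × FAD hippocampus, 141, 185 and 15 in WT cortex and 37, 135 and 177 in 5 × FAD cortex. Usp35-206 had 203, 26 and 260 counts in WT hippocampus and 25, 235 and 55 in WT cortex. Usp16-205, Usp3-201, Usp54-204 and Usp7-210 reached 10-fold through 1 library each. These were 23 counts in WT hippocampus 1, 0 in WT cortex 3, 176 in WT cortex 1 and 57 in 5 × FAD hippocampus 2, in this order. Usp12-203 and Usp48-213 each had a whole group among their low libraries, the 5 × FAD hippocampus for the former and the WT hippocampus for the latter.

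Low counts of one transcript could go with high counts of another of the same gene. In 5 × FAD hippocampus 2, Usp36-203 had 76 counts, against 326 to 628 in the other libraries, and Usp36-205 had 107, against 15 to 26. The Usp7 sum in the same library held 57 counts of Usp7-210, its leading transcript, which had 331 to 1303 in the others. How reads from shared exons were divided between transcripts is not given in the sources used here. For Usp12 the other listed transcript, Usp12-202, was at 0 where Usp12-203 was low. The coding transcript of Usp12 is not listed, and whether reads were assigned to it instead was not tested.

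**Figure D5:**
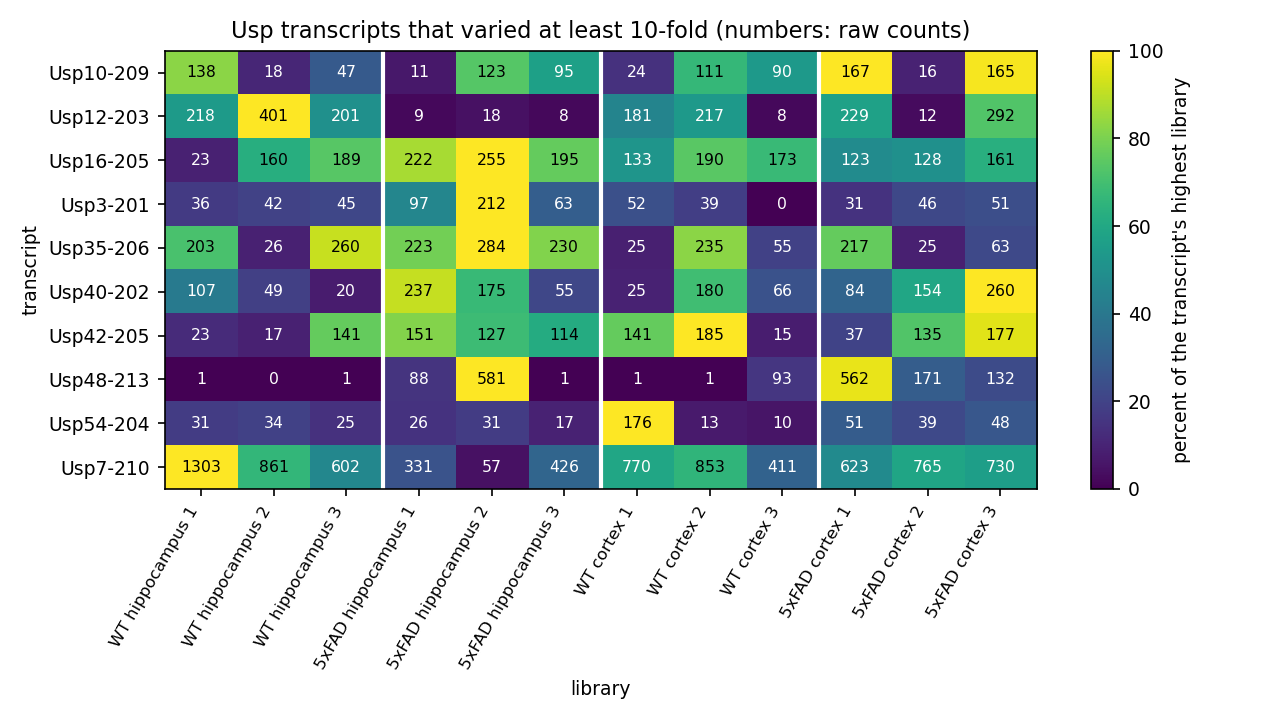
Raw counts (numbers) of the 10 Usp transcripts that varied at least 10-fold, in each of the 12 libraries, coloured by percent of the transcript's highest library. White lines separate the 4 groups. Dark cells are low. Usp12-203 is dark in all 3 libraries of the 5 × FAD hippocampus and Usp48-213 in all 3 of the WT hippocampus, while the dark cells of Usp42-205, Usp35-206 and Usp10-209 are spread over the groups.

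The other genes of the ubiquitin system were read as gene sums in the same fits. Of 38 deubiquitinases of other families, 27 had transcripts and 26 were tested. Their summed level was 1931 to 2165 CPM in WT hippocampus and 1415 to 1722 CPM in 5 × FAD hippocampus, without overlap, and 1751 to 2168 CPM against 1665 to 2013 CPM in the cortex. The difference of these sums was not tested, and the median log2 fold change of the 26 genes in the hippocampus was 0.03. Over all gene sums, edgeR called 0.0529% between genotypes in the hippocampus and 0.0175% in the cortex, and 8.68% and 6.68% had an unadjusted p under 0.05, which are the shares to set beside the counts that follow. edgeR called 0 in either genotype comparison, and called Mindy3 between regions in WT (log2 fold change 0.77, adjusted p = 0.0243), higher in hippocampus. Bap1, a tumour suppressor that acts on histone H2A, was the 1 gene of this list at an unadjusted p under 0.05 in the hippocampus and in the cortex, with log2 fold changes of −1.93 and −0.60 (adjusted p = 0.464 and 0.739 by edgeR), and DESeq2 called it in the hippocampus. Of 11 Usp cofactors 8 were tested, and edgeR and DESeq2 called 0 in the 5 comparisons, with 1 at an unadjusted p under 0.05 in the cortex. The 7 ubiquitin and E1 genes had 0 calls by either tool and 1 at the unadjusted p, in the hippocampus. Of 24 E2 enzymes, 22 to 23 were tested and edgeR called 0, with 1 at the unadjusted p in the hippocampus and 4 in the cortex, where DESeq2 called 1. Of 36 proteasome subunits, 33 to 34 were tested and both tools called 0, with 2 at the unadjusted p in the hippocampus and 1 in the cortex.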

How the data were processed

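Libraries were grouped by the genotype, region and replicate number in the labels. The authors deposited whole-number counts per transcript, mostly non-coding, without normalization. Per the labels, ribosomal RNA was depleted and stranded, paired-end libraries were sequenced, and the submitters' processing notes list Trimmomatic 0.36 and edgeR. The aligner, the counting program and the genome build are not given in the sources used here. All 12 columns were used and 0 were left out. Transcripts were annotated with GENCODE M21 on GRCm38, and 225 Ensembl identifiers had no match there. Whether same-numbered replicates of the 2 regions are the same mouse is not stated.

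Tests per transcript and per gene sum ran on the whole table in edgeR 4.0.16 (R 4.3.3), with filterByExpr, TMM scaling, glmQLFit, glmQLFTest and Benjamini-Hochberg adjustment over all features at 0.05. Each two-group fit used the 6 libraries compared, and the interaction used all 12. These fits had no term for mice that gave both regions. Standard errors were taken from the size of the change and its F statistic. CPM used TMM-scaled library sizes. The study's screen was taken as an unadjusted p under 0.05 with a log2 fold change of 1 or more in either direction. p-values measure the spread between these libraries only, and floors cover counting error only. Alternatives were DESeq2 1.42.0, its size factors in edgeR, library size only, other filters on low counts, robust estimation, the replicate block, all 12 libraries in one fit, a term for Y-linked transcripts, summing only transcripts with at least 10 counts, and leaving out libraries. Functions were tested on simulated data. The members, gene lists, role groups and tests were chosen with earlier results of these data known. Named were Usp12, Usp46 and Usp1, every called member, up to 5 genes and 5 transcripts in each direction with an unadjusted p under 0.05 and groups that did not overlap, the 10 highest genes in CPM and the 5 highest per kb, genes that failed the filter, 8 examples of roles, and Usp6nl. Usp48, Usp53, Usp3, Usp15-210, Bap1, Mindy3 and the transcripts that varied were chosen after their values were seen. Replicates of every group differed by more than counting noise.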

Additional observations from a re-analysis of the deposited data

How the results depend on the processing

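Usp12 was chosen from the genotype contrast in the hippocampus, so nothing is read from its count of Usp gene sums past the threshold (1, Usp12), which was 0 with at least 10 counts required in every library (Usp12, with as few as 8, was then not tested), with all 12 libraries in one fit, with a term for Y-linked transcripts and without 5 × FAD 1 and 2, and 0 to 1 when each library was left out (0 without WT hippocampus 1, 2 or 3 or 5 × FAD hippocampus 1). The log2 fold change of Usp12 lay between −4.90 and −4.05 in the fits that tested it. The call of Usp24 between regions in WT counted 0 with the replicate block (log2 fold change 1.06, adjusted p = 0.0991 by edgeR), with all 12 libraries in one fit, and 0 to 0 when each library was left out. With DESeq2, 1 transcript was called between genotypes in the hippocampus, 1 between regions in WT (also 1 with at least 10 counts in every library) and 1 between regions in 5 × FAD, where 1 gene sum was called too. Apart from the filter that removed Usp12, the cause was not tested. Log2 fold changes turned for the Usp48 gene sum in the hippocampus, to −1.34 with the Y-linked term and −1.34 without 5 × FAD 1 and 2, and for Usp15-210 to −0.45 and −0.44. When single libraries were left out, the Usp12 gene sum in the cortex ran from −0.19 to 0.92, that of Usp24 between genotypes in the hippocampus from −0.36 to 0.16 and the interaction of Usp46 from −0.41 to 0.16. Of the values of named members under alternatives, 1206 kept direction and side of the threshold, 15 lost the call, 5 gained it and 12 turned. Correlations of same-numbered deviations were between −0.07 and 0.01 for genotypes and between −0.03 and 0.26 for regions. The same-numbered region pairs were at 0.01, −0.03 and −0.03 in WT and at 0.07, 0.10 and 0.26 in 5 × FAD. In 5 × FAD, number 3 of a region against number 1 or 2 of the other was at −0.18 to −0.11. Not every library correlated best with its own number. With the replicate block, calls over all gene sums went from 400 to 5 between regions in WT and from 6 to 2 between genotypes in the hippocampus, and no other count of Usp members changed. Totals of 3517967 to 5014389 counts leave genes near the floor of 3 counts, such as Usp8 and Usp50, untested in most fits.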
